A study of Homo sapiens with 40 samples.

Results

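The IGF2BP family (insulin-like growth factor 2 mRNA-binding proteins) consists of 3 genes, IGF2BP1, IGF2BP2 and IGF2BP3, and is described here across all 40 libraries of a study of human lung epithelial cells. The members were found by matching the Ensembl identifiers of the deposited table to gene symbols. The 3 rows are ENSG00000159217.10 (IGF2BP1), ENSG00000073792.16 (IGF2BP2) and ENSG00000136231.14 (IGF2BP3), out of 62263 genes in the table. All 3 passed the filter on low counts, with 16735 genes tested in all. Membership rests on gene identity alone, but the family was chosen with earlier results of these data known.

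The cells were BEAS-2B, an immortalised line of human bronchial epithelium. One line carried a constitutive control hairpin (shControl) and the other a constitutive hairpin against IGF2BP3 (shIGF2BP3). The sample titles write these lines as siC and siIGF2BP3, and the labels do not give the hairpin's target site. All cells were grown in RPMI with 10% fetal bovine serum and starved overnight in 2% serum. They were then either left unstimulated or given interleukin-13 (IL-13), a type 2 cytokine of allergic airway inflammation, at 100 ng/ml, and harvested 24 h later. For each line and treatment the study sequenced polyadenylated RNA of the whole lysate (input) and of the polysome fraction (mRNAs bound by several ribosomes), a design called Frac-seq. The 8 groups are thus shControl unstimulated, shControl with IL-13, shIGF2BP3 unstimulated and shIGF2BP3 with IL-13, each as input and as polysome RNA, with 5 libraries per group. Each hairpin is represented by 1 line, so differences between the lines and effects of the hairpin cannot be told apart. The labels do not say whether the 5 libraries of a group came from independent cultures, or whether input and polysome libraries of one number came from one culture, so p-values measure the spread between these samples, which may be technical.

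IGF2BP proteins bind mRNAs through RNA-recognition and KH domains and are known to affect the stability, localisation and translation of their targets, including transcripts that carry N6-methyladenosine. IGF2BP1 and IGF2BP3 are oncofetal: abundant in the embryo, low in most adult tissues and re-expressed in many cancers. IGF2BP2 stays expressed in adult tissues and is best known for its links to metabolism. Transcripts of the family carry matches to let-7, a microRNA of differentiated cells that holds oncofetal genes down, and LIN28 proteins oppose let-7.

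In the GENCODE 29 annotation of the GRCh38 build, IGF2BP1 lies on the plus strand at chr17:48997412-49055650. Its longest coding transcript has 8274 bases in 15 exons, with a coding sequence of 1731 bases and a 3′UTR of 6206 bases. IGF2BP2 lies on the minus strand at chr3:185643739-185825056, and its longest coding transcript has 3688 bases in 16 exons, with 1797 coding bases and a 3′UTR of 1792 bases. IGF2BP3 lies on the minus strand at chr7:23310209-23470467, and its longest coding transcript has 4250 bases in 15 exons, with 1737 coding bases and a 3′UTR of 2153 bases. The coding sequences are thus close in length, and the transcripts differ mainly in the 3′UTR.

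Because the proteins are close relatives, the transcripts were searched for stretches that could let reads of one member be counted to another. No run of 31 bases was shared between any 2 members. The longest run shared by IGF2BP1 and IGF2BP2 had 22 bases and the longest shared by IGF2BP1 and IGF2BP3 had 21. Both lie in the coding part of exon 1. The longest run shared by IGF2BP2 and IGF2BP3 had 15 bases, lay in the 3′UTR of each and is not shown. The 2 runs in exon 1 are shown as the longest exact runs between the members' longest coding transcripts. The shared bases are in capitals, with 6 flanking bases on each side.
IGF2BP1, run shared with IGF2BP2 (chr17:48997854-48997875, plus strand): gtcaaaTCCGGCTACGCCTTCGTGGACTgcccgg
IGF2BP2, run shared with IGF2BP1 (chr3:185824828-185824849, minus strand): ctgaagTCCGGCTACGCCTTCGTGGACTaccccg
IGF2BP1, run shared with IGF2BP3 (chr17:48997866-48997886, plus strand): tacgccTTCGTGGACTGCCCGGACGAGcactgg
IGF2BP3, run shared with IGF2BP1 (chr7:23469970-23469990, minus strand): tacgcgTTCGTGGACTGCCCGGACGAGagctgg
The 2 runs of IGF2BP1 overlap. Sharing with genes outside the family was larger. Of the 31-base runs in each member's transcripts, 0.911% of those of IGF2BP1, 16.5% of those of IGF2BP2 and 10.8% of those of IGF2BP3 also occurred in another gene. For IGF2BP2 these were mostly in the pseudogenes ENSG00000257674, ENSG00000225603 and ENSG00000236583, and for IGF2BP3 in the pseudogenes ENSG00000235008 and ENSG00000213067. The deposited estimated counts of these 5 genes were at most 2.01 in any library, so few reads had been assigned to them. IGF2BP3 also shared 43 of its 8682 runs with transcripts of ATP5MC2, an expressed gene of the mitochondrial ATP synthase, and whether reads were exchanged between the 2 was not tested. The opposite-strand gene IGF2BP2-AS1 reached at most 9 counts and was at 0 in 25 of 40 libraries.

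The let-7 match is a regulatory feature described for the family, and it is shown here for all 3 members. The mature microRNA comes from the RefSeq-derived table, with its seed (bases 2 to 8) in capitals.
hsa-let-7a-5p: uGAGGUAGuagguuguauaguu
The 3′UTRs were searched on the transcript strand for the 7 bases complementary to that seed, CTACCTC. IGF2BP1 held 4 matches, IGF2BP2 held 1 and IGF2BP3 held 1. The match is in capitals with 14 bases before it and 6 after it.
IGF2BP1 (chr17:49051062-49051088, exon 15): gtgtgcgaagtaaaCTACCTCaaggta
IGF2BP1 (chr17:49053699-49053725, exon 15): agcagtgctagtaaCTACCTCacagag
IGF2BP1 (chr17:49054353-49054379, exon 15): tataaatggattaaCTACCTCaatcct
IGF2BP1 (chr17:49054998-49055024, exon 15): cacttttgttttatCTACCTCttagca
IGF2BP2 (chr3:185644215-185644241, exon 16): acacacagaagaagCTACCTCaggtgt
IGF2BP3 (chr7:23311790-23311816, exon 15): gcatttttactcaaCTACCTCaggtat
All 6 matches lie in the last exon. For comparison, other 3′UTRs at least as long as that of a member were searched from their start over that member's length only. In that stretch at least 1 match was present in 30.3% of the 752 such 3′UTRs for IGF2BP1. The share was 9.95% of the 6359 for IGF2BP2 and 11.9% of the 5288 for IGF2BP3. At least as many matches as in IGF2BP1 were present in that stretch in 0.133% of the 752. A match is a description of the sequence, and no let-7 level was measured in polyadenylated RNA.

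Input libraries held 14044352 to 40441061 counts (median 26189353) and polysome libraries 1816848 to 34082191 (median 19124845). Of the polysome libraries, 3 held fewer than 5000000 counts, and all 3 came from the shIGF2BP3 line: unstimulated replicates 1 (3980588) and 5 (1816848) and IL-13 replicate 5 (2302952). Unstimulated shControl replicate 1 had the lowest IGF2BP3 level of its group in both fractions. The line differences, ratios and family shares of the shIGF2BP3 polysomes below are also given for libraries of at least 5000000 counts where the value or call moved. The labelled cell type was only partly borne out by its markers. The keratins KRT8 (median 845 TPM, a length-corrected share of transcripts, in input), KRT18 (580 TPM) and KRT17 (410 TPM) were high, and KRT19 had 35.3 TPM. But EPCAM (0.299 TPM), CDH1 (0.143 TPM), KRT5 (0.078 TPM) and TP63 (0) were near 0, while the mesenchymal VIM had 1278 TPM. The leukocyte genes PTPRC and CD3E were each at 0 in 39 of 40 libraries. CD68, also listed as a leukocyte gene, was detected in every library (median 8.23 TPM in input and 10.8 TPM in polysome RNA). The summed level of the 2 endothelial genes listed, PECAM1 and CDH5, was 0.0478 to 0.631 TPM in shControl input and 0.924 to 4.38 TPM in shIGF2BP3 input, and its part in the results was not tested. Of the 13 mitochondrially encoded mRNAs, which are not translated on cytosolic ribosomes, 12 were lower in polysome RNA, and the nuclear MALAT1 and NEAT1 were lower in all 4 settings.

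IGF2BP3 is the gene the hairpin targets. In the text below, CPM are a gene's counts relative to its library's total, after TMM scaling. In unstimulated shControl input, IGF2BP3 measured 20.7, 44.4, 48.8, 30.7 and 31.3 CPM (mean 35.2 ± 11.3, SD, n = 5). In unstimulated shIGF2BP3 input it measured 22.0, 25.5, 25.9, 21.8 and 29.1 CPM (24.9 ± 3.02, n = 5). The knockdown values were close together, 4 of the 5 control values lay above all of them, and control replicate 1 lay below all of them. With IL-13, shControl input gave 32.3, 43.3, 42.0, 29.6 and 29.8 CPM (35.4 ± 6.72, n = 5). The corresponding shIGF2BP3 libraries gave 17.7, 26.8, 35.1, 23.8 and 25.8 CPM (25.8 ± 6.29, n = 5). Here 4 of 5 knockdown libraries lay below every control library, and replicate 3 lay inside the control range. The mean CPM was thus lower by 29.4% without and by 26.9% with IL-13. In TPM the means were 8.12 against 11.2 without IL-13 and 8.36 against 9.56 with it. The size of the difference with IL-13 thus depends on the unit and is smaller in TPM.

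Neither difference passed the test across all genes. The log2 fold change was -0.50 ± 0.37 (SE) in unstimulated input and -0.45 ± 0.37 with IL-13. Averaged over both treatments it was -0.48 ± 0.26 (adjusted p = 0.957, edgeR quasi-likelihood test with Benjamini-Hochberg adjustment over 16735 genes). Few genes were called at all at an adjusted p of 0.05: 0.0120% in unstimulated input (2 genes), 0% with IL-13 and 0.406% for the average of both. With IL-13 edgeR called 0 genes, 502 genes had a p under 0.05 before adjustment, and the DESeq2 Wald test called 55. Without the 2 unstimulated shControl libraries numbered 1, the fold change was -0.64 in unstimulated input and -0.55 on average (edgeR adjusted p = 0.783). The input library left out has the lowest IGF2BP3 level of its group, so the larger values follow from that choice.

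In polysome RNA the IGF2BP3 values were more variable. With all libraries the means of the 2 lines were closer to each other than in input, which did not hold for unstimulated cells in the deeper libraries below. Unstimulated shControl polysomes gave 5.11, 19.5, 17.7, 6.18 and 7.47 CPM (mean 11.2 ± 6.84, SD, n = 5). Unstimulated shIGF2BP3 polysomes gave 6.98, 9.09, 8.28, 5.35 and 26.4 CPM (11.2 ± 8.60, n = 5). The highest value of the knockdown line came from its shallowest library, in which it rested on 54 counts, and the groups overlapped. With IL-13, shControl polysomes gave 12.8, 4.23, 12.3, 12.5 and 11.2 CPM (10.6 ± 3.62, n = 5). The shIGF2BP3 polysomes gave 14.7, 7.00, 12.7, 8.69 and 2.60 CPM (9.15 ± 4.79, n = 5). These groups overlapped across almost their whole range. The log2 fold changes were -0.10 ± 0.39 and -0.15 ± 0.37, with a mean of -0.12 ± 0.27. The background of called genes was 0.0299%, 0.0896% (0.0538% higher and 0.0359% lower) and 1.38%. Restricted to libraries of at least 5000000 counts, the unstimulated value was -0.55 and the value with IL-13 changed sign to 0.10, so no direction is given for IGF2BP3 in polysome RNA.

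**Figure D1:**
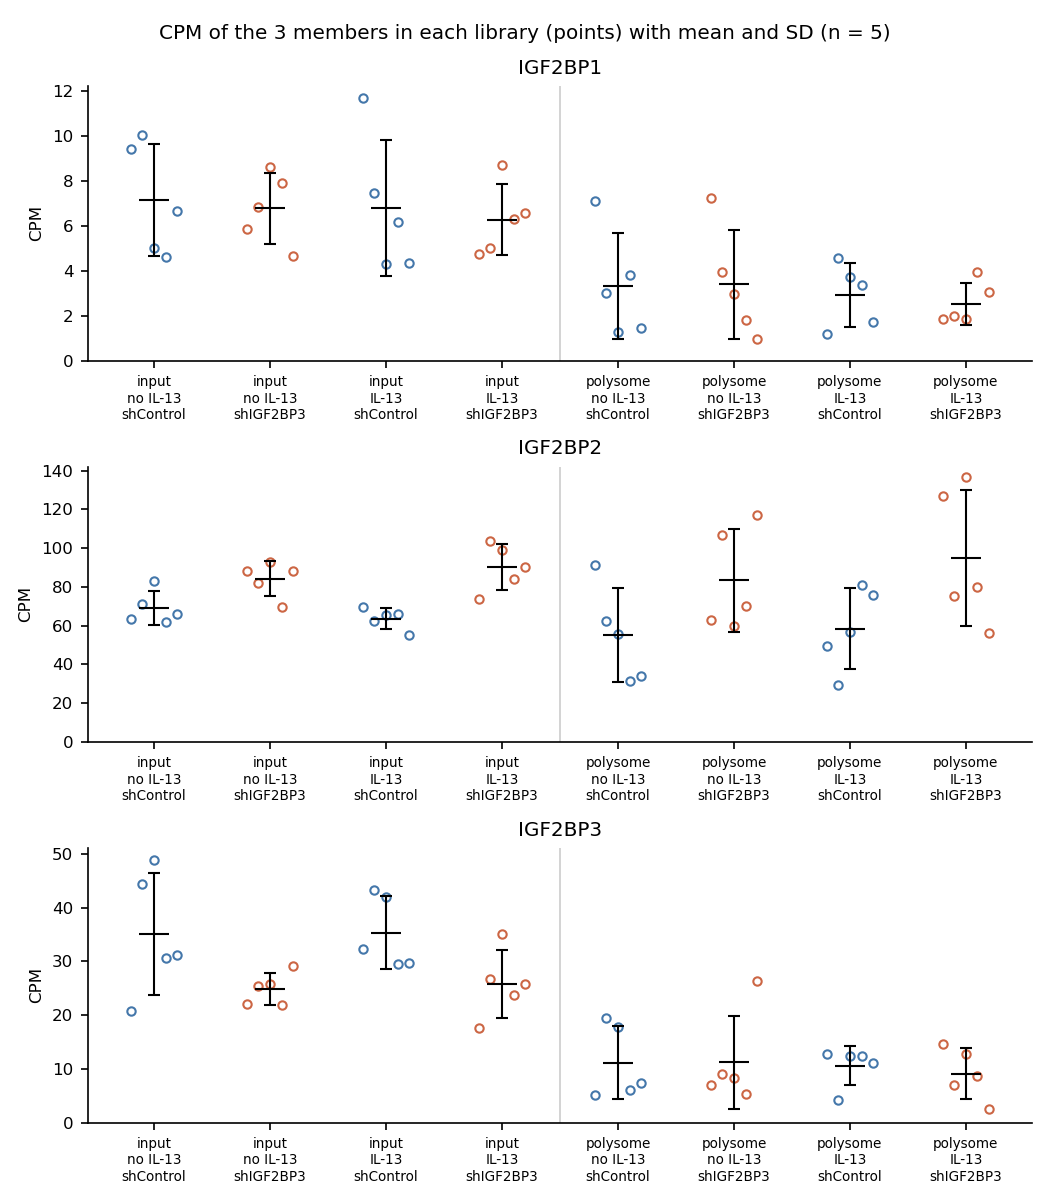
IGF2BP1, IGF2BP2 and IGF2BP3 in every library, in CPM on a linear axis from 0; open points are libraries, and black bars are group means with SD (n = 5). IGF2BP2 with IL-13 in input (73.8 to 103.4 CPM in shIGF2BP3 against 55.0 to 69.5 in shControl) is the only member and setting in which the lines do not overlap.

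IGF2BP2, the member that adult tissues keep, was higher in the shIGF2BP3 line in mean level in all 4 settings. In unstimulated input it measured 63.3, 71.1, 83.0, 61.7 and 66.1 CPM in shControl (mean 69.0 ± 8.59, SD, n = 5). In shIGF2BP3 it measured 88.4, 82.1, 92.9, 69.8 and 87.9 CPM (84.2 ± 8.92, n = 5). Of the 5 knockdown values, 3 lay above the whole control range. In this setting 1.36% of all genes separated the lines without overlap, and 0.854% did so with the shIGF2BP3 line higher. With IL-13, shControl input gave 69.5, 62.2, 65.2, 65.8 and 55.0 CPM (63.5 ± 5.43, n = 5). The shIGF2BP3 libraries gave 73.8, 103.4, 99.0, 83.9 and 90.1 CPM (90.0 ± 11.8, n = 5). Every knockdown value lay above every control value in this setting. Such separation, in the higher direction, was found for 0.980% of the 16735 genes. The mean was 22.0% higher without and 41.7% higher with IL-13.

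The input log2 fold changes of IGF2BP2 were 0.29 ± 0.25 unstimulated and 0.50 ± 0.25 with IL-13 (SE). Their mean was 0.39 ± 0.18 (adjusted p = 0.733 by edgeR's quasi-likelihood test), which did not pass the test. When only the libraries compared entered the fit, in place of all 40, the same mean passed (0.39, adjusted p = 0.0142, edgeR quasi-likelihood test), so the call in input depends on which libraries estimate the spread.

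In polysome RNA, IGF2BP2 measured 91.1, 62.4, 55.7, 31.5 and 34.0 CPM in unstimulated shControl (mean 54.9 ± 24.3, SD, n = 5). It measured 62.8, 106.7, 60.0, 70.3 and 117.3 CPM in unstimulated shIGF2BP3 (83.4 ± 26.6, n = 5). The groups overlapped: control replicate 1 lay above 3 of the knockdown libraries and control replicate 2 above 1 of them. With IL-13, shControl gave 49.5, 29.4, 56.6, 81.2 and 75.6 CPM (58.5 ± 20.8, n = 5). The shIGF2BP3 libraries gave 127, 75.2, 136.5, 79.8 and 55.9 CPM (94.9 ± 35.0, n = 5). Only replicates 1 and 3 of the knockdown line lay above all controls.

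The polysome log2 fold changes of IGF2BP2 were 0.60 ± 0.25 (adjusted p = 0.522) and 0.70 ± 0.25 (adjusted p = 0.303). Their mean of 0.65 ± 0.18 fell just short of the threshold (adjusted p = 0.0522, edgeR quasi-likelihood test). This value sat on the threshold: it passed with DESeq2's size factors (0.68, adjusted p = 0.0405 by edgeR), with an offset for transcript length (0.79, 0.0284), with libraries of at least 5000000 counts (0.74, 0.0357), without the unstimulated shControl libraries numbered 1 (0.78, 0.0101) and by the DESeq2 Wald test (0.68, 0.0114). Leaving out each of the 20 polysome libraries in turn gave 0.57 to 0.78, with an adjusted p of 0.0104 to 0.122 (edgeR). It passed in 7 of the 20, namely without unstimulated shControl 1, unstimulated shIGF2BP3 1 or 3, IL-13 shControl 4 or 5, or IL-13 shIGF2BP3 2 or 5. The sign was positive in all of these fits. Unstimulated shControl polysome library 1 had the highest IGF2BP2 level of its group (91.1 CPM). Fits without it therefore give a larger difference by choice of library.

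IGF2BP1 was low in both lines. In input it ranged from 4.31 to 11.7 CPM, with group means of 7.14 ± 2.49 (unstimulated shControl), 6.76 ± 1.57 (unstimulated shIGF2BP3), 6.78 ± 3.03 (IL-13 shControl) and 6.26 ± 1.57 (IL-13 shIGF2BP3; SD, n = 5 each). In polysome RNA it ranged from 0.978 to 7.23 CPM, with means of 3.32 ± 2.36, 3.39 ± 2.42, 2.91 ± 1.41 and 2.54 ± 0.936 in the same order. The lines overlapped in every setting. Between lines the log2 fold changes in input were -0.07 unstimulated and -0.11 with IL-13. Those in polysome RNA were 0.04 and -0.25, and none of the 4 passed the test. With the length offset the values in both input settings and in IL-13 polysomes changed sign, and with libraries of at least 5000000 counts that in unstimulated polysomes did, so no direction is given.

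Because both IGF2BP3 and IGF2BP2 differed in mean level between the lines in input, in opposite directions, their ratio was examined in each library, as the difference of log2(CPM + 1). This measure was chosen after the levels had been seen. In input the ratio of IGF2BP3 to IGF2BP2 averaged -1.01 in unstimulated shControl and -1.72 in unstimulated shIGF2BP3, a difference of -0.72 (two-sided exact permutation test, p = 0.0159, adjusted p = 0.0544 over 24 ratio tests). With IL-13 it averaged -0.84 and -1.78, a difference of -0.94 with no overlap between the lines (exact permutation p = 0.00794, the smallest that 252 arrangements allow, adjusted p = 0.0317). In polysome RNA the unstimulated means were -2.27 and -2.95, a difference of -0.67 that was within the spread of the libraries (exact permutation p = 0.183, adjusted p = 0.327). In libraries of at least 5000000 counts it was -0.93 (exact permutation adjusted p = 0.257). With IL-13 they were -2.36 and -3.33, a difference of -0.97 with no overlap (exact permutation adjusted p = 0.0317), and -0.81 in libraries of at least 5000000 counts (exact permutation adjusted p = 0.0381). The unstimulated input difference was -0.86 without shControl replicate 1 (exact permutation adjusted p = 0.0272), whose ratio of -1.56 was the lowest of its group. Leaving out the lowest control ratio can only widen this difference, so that value lends the difference no support. Of the 16 ratio tests that involve IGF2BP1, none passed. The share of gene pairs whose ratio separates the lines without overlap was not computed. Of single genes, 1.64% in input and 1.66% in polysome RNA did so with IL-13, in either direction.

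**Figure D2:**
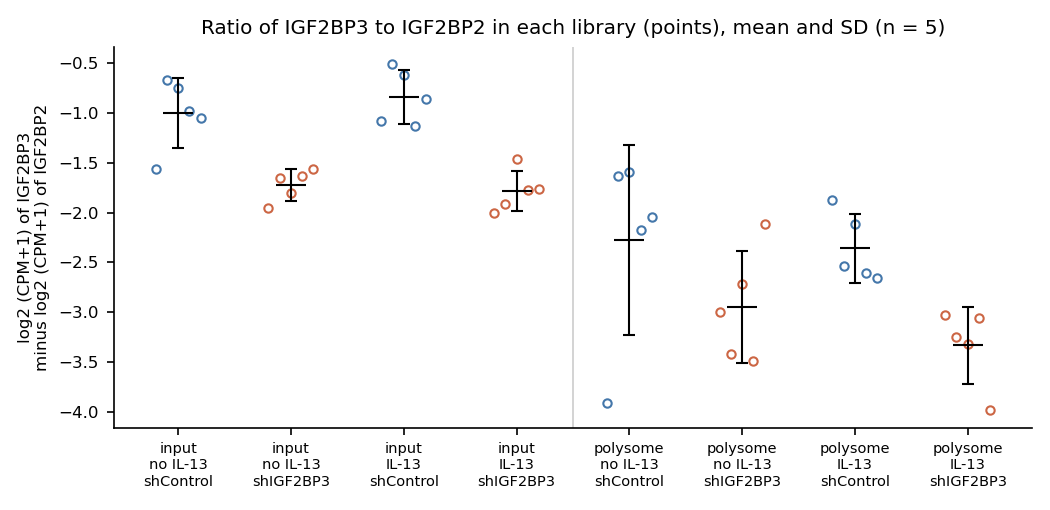
Ratio of IGF2BP3 to IGF2BP2 in each of the 40 libraries, as the difference of log2(CPM + 1); open points are libraries and black bars are group means with SD (n = 5). The ratio is lower in the shIGF2BP3 line without overlap in both IL-13 settings, and lower in polysome RNA than in input without overlap in each of the 4 line and treatment settings. How many other gene pairs separate in this way was not computed.

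Levels between members were compared per length, in TPM. In input, IGF2BP2 averaged 27.9 TPM in unstimulated shControl, IGF2BP3 11.2 TPM and IGF2BP1 1.56 TPM. IGF2BP2 exceeded IGF2BP3 in 40 of 40 libraries. IGF2BP3 exceeded IGF2BP1 in 20 of 20 input libraries and in 17 of 20 polysome libraries, so the order of the 2 lower members did not hold in every polysome library. As a share of the family's summed TPM in input, IGF2BP2 made up 69.4% ± 4.34 (SD, n = 5) in unstimulated shControl and 78.0% ± 1.12 in unstimulated shIGF2BP3. With IL-13 the shares were 67.9% ± 4.40 and 79.1% ± 2.47. In both treatments the lines did not overlap: 76.5 to 79.2% against 63.9 to 75.4%, and 76.0 to 81.8% against 63.6 to 72.6%. The shares of a library add up to the whole, so a lower IGF2BP3 raises the IGF2BP2 share by itself. In CPM, IGF2BP2 itself overlapped between the lines in unstimulated input. No like share was computed for other genes. The IGF2BP3 share was 26.7% and 28.0% in shControl and 18.5% and 17.3% in shIGF2BP3, and the IGF2BP1 share was between 3.58% and 4.13% in all 4 input groups.

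The summed TPM of the family in input was 40.6 ± 10.9 in unstimulated shControl and 44.0 ± 6.24 in unstimulated shIGF2BP3 (SD, n = 5 each). With IL-13 it was 34.1 ± 6.07 and 47.7 ± 10.2. The mean sum was thus not lower in the line with the hairpin, and the ranges of the lines overlapped. IGF2BP3 averaged 8.12 TPM (unstimulated) and 8.36 TPM (IL-13) in shIGF2BP3 against 11.2 and 9.56 TPM in shControl. IGF2BP2 averaged 34.3 and 37.6 TPM in shIGF2BP3 against 27.9 and 23.1 TPM in shControl. In polysome RNA, IGF2BP2 took up 80.4%, 86.8%, 82.7% and 91.3% of the family in unstimulated shControl, unstimulated shIGF2BP3, IL-13 shControl and IL-13 shIGF2BP3. The IGF2BP3 share there was 14.6%, 8.96%, 13.6% and 6.73%, and the IGF2BP1 share 5.06% ± 5.44, 4.28% ± 4.94, 3.66% ± 3.55 and 2.02% ± 1.14 (SD, n = 5 each). Single libraries carried the first 3 of these IGF2BP1 means: without replicate 4, replicate 1 and replicate 2 of their groups they were 2.80%, 2.15% and 2.27%. In libraries of at least 5000000 counts the IGF2BP2, IGF2BP3 and IGF2BP1 shares were 89.7%, 7.49% and 2.77% in unstimulated and 90.2%, 7.71% and 2.14% in IL-13 shIGF2BP3 polysomes.

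**Figure D3:**
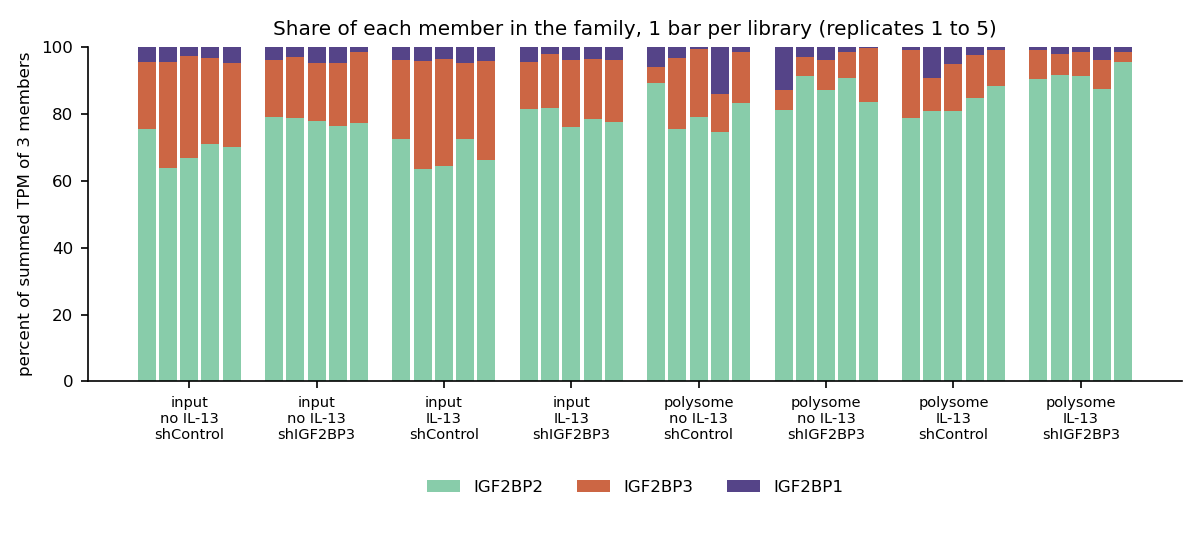
Share of each member in the summed TPM of the IGF2BP family, in percent, with 1 stacked bar per library and 5 libraries per group. IGF2BP2 is the largest share in all 40 libraries, and its group mean runs from 67.9% in IL-13 shControl input to 91.3% in IL-13 shIGF2BP3 polysomes.

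The members differed in how their polysome level compared with their input level. Such a comparison is relative to the other transcripts of each fraction, since the amount of RNA per fraction was not measured. The data cannot tell fewer cells with a transcript from less RNA per cell. IGF2BP3 was lower in polysome RNA in all 4 settings. Its log2 fold change was -1.65 ± 0.38 in unstimulated shControl (adjusted p = 0.000501), -1.24 ± 0.39 in unstimulated shIGF2BP3 (0.00920), -1.74 ± 0.38 in IL-13 shControl (0.000279) and -1.44 ± 0.38 in IL-13 shIGF2BP3 (0.00210; edgeR quasi-likelihood test). Its mean polysome CPM was 0.318, 0.451, 0.300 and 0.354 of its input CPM. Input and polysome libraries did not overlap in 3 of the 4 settings, against 15.6%, 19.7%, 16.2% and 21.5% of all genes that were lower without overlap in the 4 comparisons. The exception was unstimulated shIGF2BP3, in which the shallow replicate 5 reached 26.4 CPM. Lower calls were common: 22.8%, 22.0%, 22.6% and 23.3% of all genes were called lower in the same 4 comparisons, and 40.2%, 38.5%, 39.3% and 39.3% in either direction. The median over all genes was between -0.19 and -0.23. In libraries of at least 5000000 counts the 4 values of IGF2BP3 were -1.57, -1.61, -1.64 and -1.09, and all passed.

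IGF2BP2 did not differ detectably between the fractions. Its log2 fold changes were -0.33 ± 0.25, -0.02 ± 0.25, -0.12 ± 0.25 and 0.08 ± 0.25 in the same order, and its polysome CPM was 0.796, 0.990, 0.920 and 1.05 of its input CPM. None was called. The difference between the 2 members was tested on their ratio. The ratio of IGF2BP3 to IGF2BP2 was lower in polysome RNA by 1.27, 1.22, 1.51 and 1.54 on the log2 scale in the 4 settings, with no overlap in any of them (exact permutation p = 0.00794 each, adjusted p = 0.0317). The share of gene pairs whose ratio separates the fractions without overlap was not computed. Of single genes, 25.5%, 31.3%, 26.8% and 33.9% did so in either direction in the 4 settings. The ratio calls held under every leave-out of 1 library in both IL-13 settings. In unstimulated shControl the call was lost without polysome library 1 (-0.86) or any of the 5 input libraries (adjusted p = 0.0544 to 0.0952, exact permutation). In unstimulated shIGF2BP3 it was lost without any of the 5 input libraries (exact permutation adjusted p = 0.0544 each). In libraries of at least 5000000 counts it did not pass either (-1.48, exact permutation adjusted p = 0.0536). The p before adjustment was then the smallest that the remaining libraries allow, so this setting cannot tell whether the call holds.

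IGF2BP1 lay between them in log2 fold change, but none of its ratio tests against either member passed. Its log2 fold changes were -1.11 ± 0.42 in unstimulated shControl (adjusted p = 0.0313), -0.99 ± 0.43 in unstimulated shIGF2BP3 (0.0629), -1.19 ± 0.42 in IL-13 shControl (0.0204) and -1.33 ± 0.43 in IL-13 shIGF2BP3 (0.0118; edgeR quasi-likelihood test). These calls did not withstand an offset for transcript length, under which the values were -0.39, -0.15, -0.99 and -0.99 and none passed. The unstimulated shControl call was also lost without input library 1 or 2 or polysome library 2, 3 or 5, and the IL-13 shControl call without input library 1 or polysome library 1 or 5. Input and polysome libraries of IGF2BP1 did not overlap only in IL-13 shIGF2BP3. In mean TPM its polysome level over input was 0.624 and 0.872 in unstimulated shControl and shIGF2BP3, against 0.624 and 0.842 for IGF2BP2. With IL-13 it was 0.452 and 0.427, against 0.794 and 0.969. The middle rank thus did not hold in TPM in unstimulated cells.

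The polysome level varied with transcript length over all genes, and the members differ in length. When the tested genes were split into 10 classes by their average transcript length in input, the median log2 fold change of unstimulated shControl was -0.33 in the shortest class, rose to 0.45 in the third and fell from there to -1.20 in the longest. IGF2BP3, with a median length of 3911 bases, was in class 8, whose medians were -0.45, -0.35, -0.39 and -0.40 in the 4 settings. Within that class IGF2BP3 lay at the 14.4, 20.9, 11.9 and 16.5 percentile, so it was low for its length without being extreme. IGF2BP1 (4723 bases, class 9) lay at the 36.0, 36.2, 30.7 and 26.9 percentile of its class, and IGF2BP2 (3008 bases, class 6) at the 42.3, 54.1, 51.2 and 59.7 percentile. With the length offset the IGF2BP3 values were -1.58, -1.23, -1.58 and -1.29, and all 4 passed the test.

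**Figure D4:**
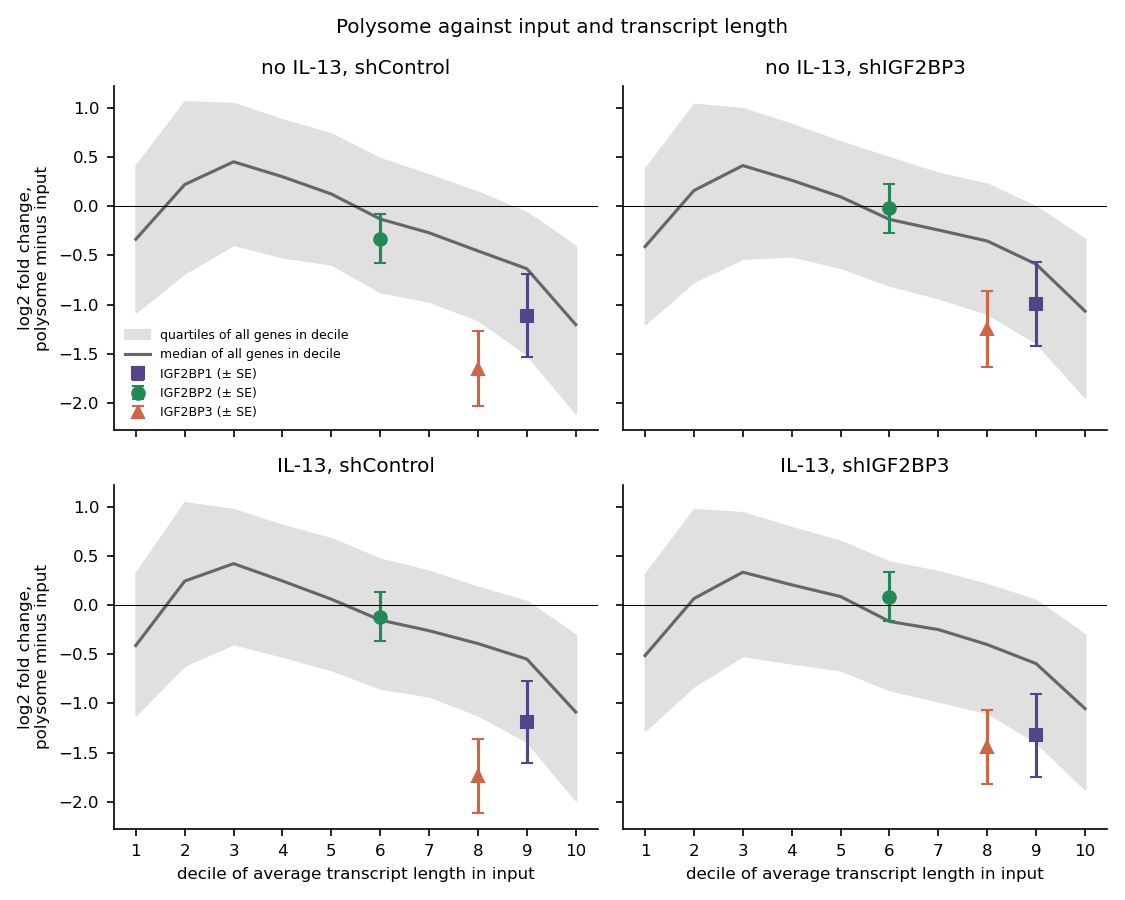
Log2 fold change of polysome against input RNA by class of average transcript length (class 1 shortest, class 10 longest), in the 4 line and treatment settings; the line gives the class median over genes, the shaded band its quartiles, and the points the 3 members with SE. IGF2BP3 lies below the median of class 8 in each setting, while IGF2BP2 lies near that of class 6.

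IL-13 did not change the family detectably. Comparing IL-13 with unstimulated cells, the log2 fold changes of IGF2BP3 were 0.01 in shControl input, 0.06 in shIGF2BP3 input, -0.08 in shControl polysomes and -0.14 in shIGF2BP3 polysomes. Those of IGF2BP2 were -0.12, 0.10, 0.09 and 0.20, and those of IGF2BP1 were -0.07, -0.11, -0.15 and -0.45. No member was called, against 0.0777%, 0.0837%, 0.125% and 0.0956% of all genes. The shift of the line difference from input to polysome RNA was also tested as an interaction. It was 0.40 ± 0.53 unstimulated and 0.30 ± 0.52 with IL-13 for IGF2BP3 (log2, SE), 0.31 ± 0.35 and 0.20 ± 0.35 for IGF2BP2, and 0.12 and -0.13 for IGF2BP1. None passed, against 0% of all genes unstimulated (0 by edgeR, 283 with a p under 0.05 before adjustment, 10 by DESeq2) and 0.00598% with IL-13. The line difference of IGF2BP2 is therefore not shown to be larger in polysome RNA than in input.

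The members differed in their spread between libraries. Fitted on the input libraries, the biological coefficient of variation was 0.138 for IGF2BP2, at the 5.34 percentile of all genes, 0.230 for IGF2BP3 (42.6 percentile) and 0.319 for IGF2BP1 (60.9 percentile), with a median of 0.257 over all genes. In polysome libraries it was 0.364, 0.525 and 0.562 (34.5, 58.5 and 61.8 percentile), against a median of 0.457. IGF2BP2 was thus among the least variable genes in input, while IGF2BP3 was close to the median gene. These percentiles are not matched for abundance, in which IGF2BP2, IGF2BP3 and IGF2BP1 were at the 82.5, 58.5 and 38.1 percentile. Over all libraries the fitted dispersion of IGF2BP2 was 0.0762, near the 0.0786 of the trend at its abundance. It was 0.156 against 0.113 for IGF2BP3 and 0.183 against 0.233 for IGF2BP1. After the group means were removed, IGF2BP2 and IGF2BP3 varied together across libraries. In the 20 input libraries Pearson's r was 0.654 (permutation p = 0.00504, adjusted p = 0.00865 over 2 relations) and Spearman's rho 0.626 (permutation p = 0.00644, adjusted p = 0.00971). Without the 2 libraries farthest from the median IGF2BP3 value, r was 0.494. In the 20 polysome libraries r was 0.618 (permutation p = 0.00865) and rho 0.620 (permutation p = 0.00971), r without the 2 farthest libraries was 0.521, and r over the 17 libraries of at least 5000000 counts was 0.487 (permutation p = 0.102). The positive sign is opposite to that of the difference between the lines, in which IGF2BP2 was higher where IGF2BP3 was lower. The 2 values of a library share its depth and its scaling factor.

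The deposited counts and TPM together give an estimate of each gene's average transcript length in a library, which moves with the mix of isoforms that was quantified. For IGF2BP3 in IL-13 input it was 3808 to 3869 bases in shIGF2BP3 and 3954 to 4331 bases in shControl, with no overlap, against 0.522% of the 11870 genes that could be compared. In unstimulated input the ranges were 3618 to 4024 and 3844 to 4310 bases and overlapped, and 0.334% of 11991 genes did not. IGF2BP1 varied most, from 2091 to 9120 bases. IGF2BP2 was between 2805 and 3534 bases in input and between 2714 and 4294 in polysome RNA. The highest values exceeded each member's longest annotated transcript. They were 9120 against 8274 bases for IGF2BP1, 4294 against 3688 for IGF2BP2 and 4331 against 4250 for IGF2BP3. No mix of these annotated isoforms gives such values, so the lengths are approximate, and the reason was not tested. Average lengths of low genes rest on few counts, and no test was made of them.

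**Figure D5:**
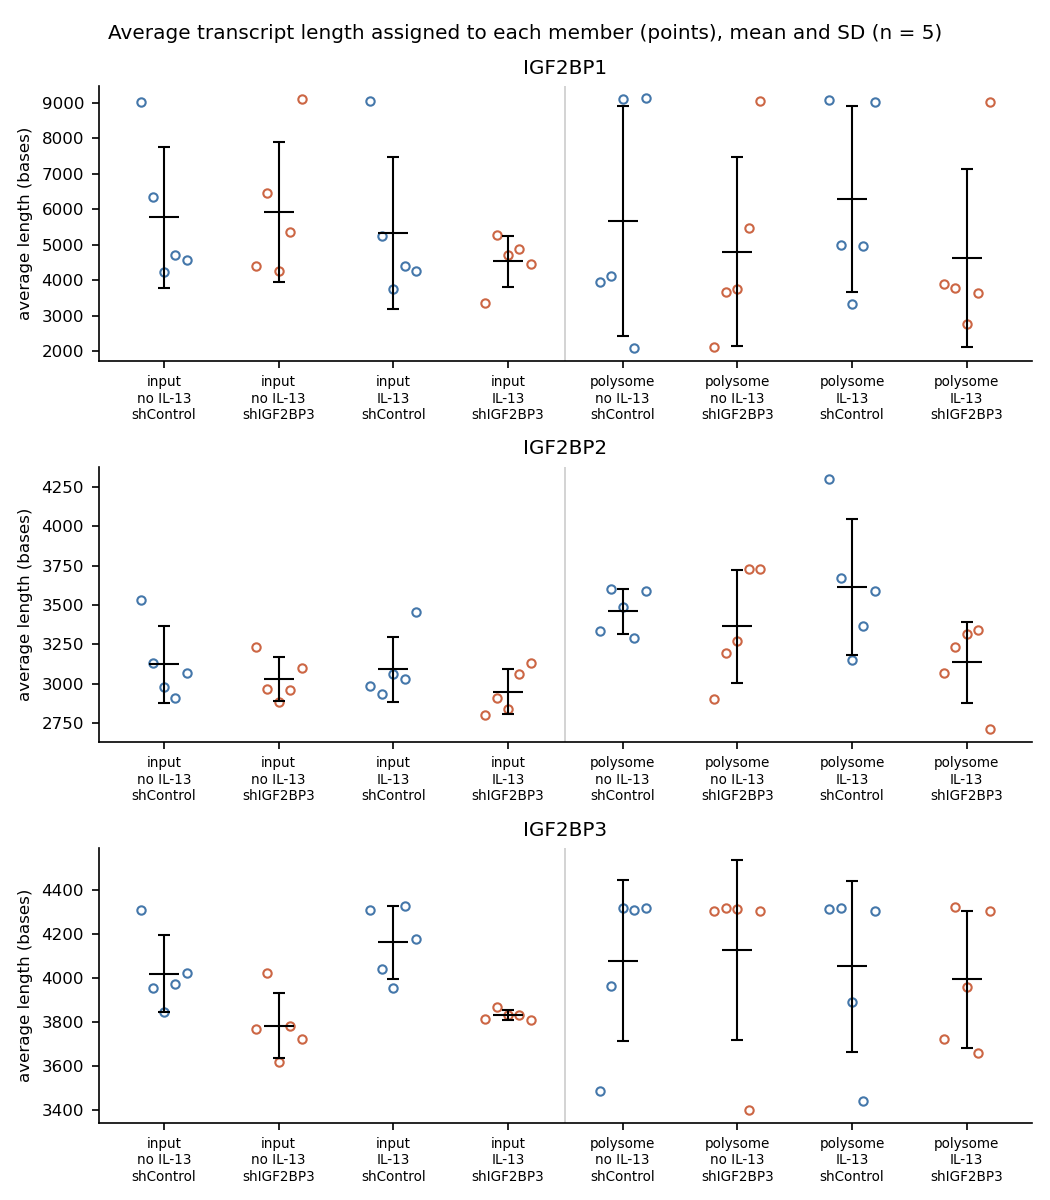
Average transcript length of each member in each library, in bases, derived from the deposited estimated counts and TPM; open points are libraries and black bars are group means with SD (n = 5). IGF2BP3 in IL-13 input is shorter in shIGF2BP3 (3808 to 3869 bases) than in shControl (3954 to 4331 bases), while IGF2BP1 spans 2091 to 9120 bases.

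Genes that work with the family were followed through 3 lists. The first held 9 RNA-binding proteins described as partners of the family (DHX9, ELAVL1, FMR1, HNRNPU, MATR3, PABPC1, STAU1, SYNCRIP and YBX1). All 9 were tested. Between the lines 0 were called in any of the 6 comparisons by edgeR's quasi-likelihood test or the DESeq2 Wald test, and 0 had a p under 0.05 before adjustment. In polysome against input RNA of unstimulated shControl, 7 of the 9 were lower, 1 was higher and FMR1 did not pass, against 22.8% of all genes lower and 17.4% higher. DHX9, an RNA helicase, was at -3.54, PABPC1, the cytoplasmic poly(A)-binding protein, at -2.49, HNRNPU at -1.94 and SYNCRIP at -1.34 on the log2 scale. The mRNA-stabilising ELAVL1 was higher, at 1.35 ± 0.13. The median of the list was -1.34, against -0.20 over all genes.

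Of 10 let-7 related and oncofetal genes, 6 were tested. The 4 not tested were LIN28A, LIN28B, HMGA2 and TRIM71, which reached at most 8, 1, 18 and 2 counts in any library. The mRNAs of both LIN28 antagonists of let-7 were thus at or near 0 in this polyadenylated RNA. Between the lines 0 of the 6 were called by edgeR or DESeq2, and at most 3 had a p under 0.05 before adjustment, in the polysome mean. In polysome RNA 1, 2, 2 and 3 of the 6 were lower in the 4 settings, against 22.8%, 22.0%, 22.6% and 23.3% of all genes, so the first 3 counts were not far from that share. IGF1R, a receptor for insulin-like growth factors, was lower in all 4. Of 12 mRNAs described as IGF2BP targets, all 12 were tested, 0 were called between the lines by edgeR or DESeq2, and at most 1 had a p under 0.05 before adjustment. In polysome against input RNA of unstimulated shControl, CTNNB1 (beta-catenin) at -2.22, MKI67 (a proliferation antigen) at -2.39 and LAMB2 (a laminin chain) at -2.97 were lower and ACTB (beta-actin) at 1.10 was higher. These 3 and 1 of 12 are close to the 22.8% of all genes called lower and below the 17.4% called higher, and the median of the list was -0.29 against -0.20 over all genes.

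The genes whose level followed each member most closely over the 40 libraries were taken from the 10323 tested genes with a mean of at least 5 CPM, by Pearson's r of log2(CPM + 1), as a description. For IGF2BP3 these were ARPP19 (r = 0.939 over all, 0.317 over the 20 input and 0.915 over the 20 polysome libraries), MATR3 (0.937, 0.561 and 0.872) and PKN2 (0.936, 0.680 and 0.850). For IGF2BP2 they were CD2AP (0.879, 0.685 and 0.910), UBE3A (0.869, 0.710 and 0.899) and PTAR1 (0.858, 0.617 and 0.911). For IGF2BP1 they were CHAF1A (0.887, 0.618 and 0.794), TXNIP (0.881, 0.625 and 0.798) and NUAK2 (0.881, 0.792 and 0.743). The r over all 40 libraries includes the difference between fractions.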

How the data were processed

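The study deposited 1 table of 62263 genes with, for each of 40 libraries, an estimated count and a TPM value. The estimated counts and the TPM were made by the authors; the submitters' processing notes name Trimmomatic, Salmon, DESeq2 and MultiQC with no version or role, and the genome build and annotation are not given in the sources used here. Strand-marking kits and poly(A) selection are named per the labels' protocols. The column names tie each column to a sample title.

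Estimated counts were rounded to whole numbers, since the tests need counts. Genes were filtered with filterByExpr on the 8 groups, which kept 16735 genes and at least 99.91% of each library's counts. Libraries were scaled by TMM and all 8 groups fitted together with edgeR 4.0.16 (R 4.3.3; quasi-likelihood test, 32 residual degrees of freedom), with Benjamini-Hochberg adjustment over all 16735 genes and a threshold of 0.05. Alternatives used DESeq2 1.42.0, an offset for average transcript length, other filters, a replicate block, fewer libraries and each library left out in turn. The scripts were tested on simulated data. Ratios used log2(CPM + 1) and exact permutation tests. The alternatives for the ratios were chosen after seeing the data. Average length was the count divided by TPM, scaled on 1055 genes with 1 transcript. Its highest values for the members exceed their longest annotated transcripts, so the length offset and length classes rest on approximate lengths. Sequences and positions come from GENCODE 29. Counting intervals were not used, since replicates give the error.

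The members and gene lists were chosen with earlier results of these data known. The named genes are the members, listed genes that were called or were not tested, and the 3 genes of highest r with each member.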

Additional observations from a re-analysis of the deposited data

Results flagged for a closer look

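Of 72 sets of 5 libraries examined (a member, a measure and a group), 7 held a library whose gap to the nearest other exceeded the critical share of the group's range, where chance gives about 3.6. IGF2BP3 in unstimulated shIGF2BP3 polysomes had 26.4 CPM in replicate 5, against 5.35 to 9.09 CPM in the other 4, on 54 counts in the shallowest library. IGF2BP3 in IL-13 shControl polysomes had 4.23 CPM in replicate 2, against 11.2 to 12.8 CPM in the others. IGF2BP1 made up 12.8% of the family's TPM in replicate 1 of unstimulated shIGF2BP3 polysomes, against 0.301 to 3.76% in the others, on 29 counts.

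The other 4 were average transcript lengths. IGF2BP1 had 9037 bases in IL-13 shControl input replicate 1 (3752 to 5247 in the others) and 9029 bases in IL-13 shIGF2BP3 polysome replicate 5 (2779 to 3889 in the others), the latter on 7 counts. IGF2BP2 had 3453 bases in IL-13 shControl input replicate 5 (2936 to 3063 in the others). IGF2BP3 had 3398 bases in unstimulated shIGF2BP3 polysome replicate 4 (4305 to 4319 in the others).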

How the results depend on the processing

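Depth limits the polysome values: 3 shIGF2BP3 polysome libraries hold fewer than 5000000 counts, IGF2BP1 rests there on as few as 2.10 estimated counts, and TPM shares and average lengths of low genes move with the isoform assignment. Each hairpin is 1 line, so line and hairpin cannot be told apart. Values below are log2 fold changes, and the cause of each change was not tested unless the setting itself gives it. The called polysome deficit of IGF2BP3 passed in all 4 settings under every alternative. In all, 458 of the recomputed values with a test kept their direction and side of the threshold under the alternatives other than leaving out 1 library at a time, and 26 changed sign, 12 came to pass and 7 no longer passed.

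For IGF2BP2, the mean polysome line difference (0.65) came to pass at 0.68 with DESeq2's size factors, 0.79 with the length offset, 0.74 with libraries of at least 5000000 counts, 0.78 without the unstimulated shControl libraries numbered 1 and 0.68 by the DESeq2 Wald test. The fit without the libraries numbered 1 leaves out the highest IGF2BP2 value of unstimulated shControl polysomes, so its larger value follows from that choice. The mean input line difference of IGF2BP2 came to pass at 0.39 with only the libraries compared. Its polysome against input value in unstimulated shIGF2BP3 (-0.02) turned to 0.053 with DESeq2's size factors and by the Wald test, 0.018 with libraries of at least 5000000 counts and 0.074 with only the libraries compared. For IGF2BP1, polysome against input in unstimulated shControl no longer passed at -1.14 without a filter, -0.39 with the length offset and -1.06 with only the libraries compared. Under the length offset, IL-13 shControl (-0.99) and IL-13 shIGF2BP3 (-0.99) no longer passed either. In unstimulated shIGF2BP3 the value came to pass at -0.99 without the unstimulated shControl libraries numbered 1.

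The length offset turned the IGF2BP1 line differences to 0.014 (unstimulated input), 0.13 (IL-13 input), 0.071 (input mean), 0.13 (IL-13 polysome) and 0.19 (polysome mean), its IL-13 effects to 0.024 (shControl input) and 0.14 (shIGF2BP3 input), and that of IGF2BP3 in shControl input to -0.032. With libraries of at least 5000000 counts, signs turned for the IGF2BP1 line difference in unstimulated polysomes (-0.13), the IGF2BP3 line difference in IL-13 polysomes (0.10), the IGF2BP3 IL-13 effect in shControl input (-0.000113) and shIGF2BP3 polysomes (0.57), and the unstimulated shifts of IGF2BP1 (-0.054) and IGF2BP3 (-0.047). Without the unstimulated shControl libraries numbered 1 they turned for the IGF2BP1 line difference in unstimulated input (0.043) and on average in polysomes (0.13), and for the IL-13 effects in shControl of IGF2BP1 in input (0.045) and polysomes (0.31) and of IGF2BP3 in input (-0.13). None of these turned values passed the test.

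A check of correlation did not pair the libraries by replicate number. The correlation of deviations between same-numbered libraries ran from -0.66 to 0.73 and was over 0.1 in 53 of 140 pairs, and 11 of 40 libraries correlated best with their own number. Depth did differ with the number: input libraries numbered 5 held 14044352 to 24303049 counts and those numbered 4 held 33387489 to 40441061. The check therefore cannot tell whether same-numbered libraries were handled together. Adding the replicate number as a block turned the IGF2BP1 line difference in IL-13 input to 0.011 and the IGF2BP3 IL-13 effect in shControl polysomes to 0.017. The replicate block also brought IGF2BP1 polysome against input in unstimulated shIGF2BP3 past the threshold at -1.09, as did line, treatment and number together as a block at -1.20. No other call on a member changed with a block.

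For the ratio of IGF2BP3 to IGF2BP2, polysome against input in unstimulated shIGF2BP3 no longer passed at -1.48 with libraries of at least 5000000 counts. This leaves 3 against 5 libraries, whose smallest possible p before adjustment was reached, so the setting cannot tell whether the call holds. With TPM the line difference in unstimulated input came to pass at -0.68, and those of IGF2BP1 to IGF2BP2 at -1.05 (polysome against input, IL-13 shIGF2BP3) and -0.45 (lines, IL-13 input). That of IGF2BP1 to IGF2BP3 between lines in IL-13 polysomes turned to -0.21 with libraries of at least 5000000 counts. The within-group r of IGF2BP2 with IGF2BP3 in polysomes no longer passed at 0.487 with those libraries.

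Leaving out 1 library at a time changed a call or sign in these ranges. Line differences of IGF2BP1 ran from -0.20 to 0.080 (unstimulated input), -0.26 to 0.17 (IL-13 input), -0.17 to 0.048 (input mean), -0.35 to 0.51 (unstimulated polysome) and -0.30 to 0.13 (polysome mean). Those of IGF2BP3 ran from -0.59 to 0.19 (unstimulated polysome), -0.37 to 0.027 (IL-13 polysome) and -0.34 to 0.017 (polysome mean), and that of IGF2BP2 from 0.57 to 0.78 (polysome mean). IL-13 effects of IGF2BP1 ran from -0.36 to 0.083 (shControl input) and -0.37 to 0.31 (shControl polysome), that of IGF2BP2 from -0.058 to 0.35 (shControl polysome), and those of IGF2BP3 from -0.13 to 0.15 (shControl input), -0.075 to 0.17 (shIGF2BP3 input), -0.26 to 0.20 (shControl polysome) and -0.36 to 0.41 (shIGF2BP3 polysome). Polysome against input ran from -1.58 to -0.90 (IGF2BP1, unstimulated shControl), -1.41 to -0.91 (IGF2BP1, IL-13 shControl), -1.39 to -0.67 (IGF2BP1, unstimulated shIGF2BP3), -0.27 to 0.047 (IGF2BP2, IL-13 shControl), -0.091 to 0.21 (IGF2BP2, IL-13 shIGF2BP3) and -0.13 to 0.079 (IGF2BP2, unstimulated shIGF2BP3). Shifts ran from -0.28 to 0.59 (IGF2BP1, unstimulated), -0.42 to 0.074 (IGF2BP1, IL-13) and -0.074 to 0.69 (IGF2BP3, unstimulated).

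Ratio differences under the same leave-outs ran, for IGF2BP3 to IGF2BP2, from -1.44 to -0.86 (polysome against input, unstimulated shControl), -1.43 to -1.09 (unstimulated shIGF2BP3) and -0.86 to -0.63 (lines, unstimulated input). For IGF2BP1 to IGF2BP2, polysome against input, they ran from -1.26 to -0.53 (unstimulated shIGF2BP3), -1.17 to -0.58 (IL-13 shControl) and -1.28 to -0.84 (IL-13 shIGF2BP3). For IGF2BP1 to IGF2BP3 they ran from -0.052 to 0.91 (polysome against input, unstimulated shIGF2BP3), -0.35 to 0.63 (lines, unstimulated polysome) and -0.21 to 0.59 (lines, IL-13 polysome).

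The number of genes called between the lines depends on the tool. It was 2 in unstimulated input, 0 in IL-13 input, 68 for the input mean, 5 in unstimulated polysomes, 15 in IL-13 polysomes and 231 for the polysome mean by edgeR, against 28, 55, 150, 89, 144 and 532 by the DESeq2 Wald test, and 11, 15, 224, 0, 0 and 40 with only the libraries compared. Without the unstimulated shControl libraries numbered 1 the polysome mean gave 465, and without a filter 140. The IL-13 comparisons gave 13, 14, 21 and 16 genes by edgeR and 33, 22, 61 and 36 by DESeq2.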
